A study of Homo sapiens with 14 samples.

Results

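Described here are 9 annexin genes in PANC-1 cells, a long-established line from a human pancreatic carcinoma, of 18129 genes that the array names with at least 1 probe set of a single gene. The genes are ANXA1, ANXA2, ANXA3, ANXA4, ANXA5, ANXA6, ANXA7, ANXA10 and ANXA11, read by 40 such probe sets. For each gene the probe set that was brightest on average was kept, and the others are given beside it. The family was selected on measured values: the higher ANXA3 level on the acriflavine arrays than on the TGFb1 arrays was known beforehand. ANXA3 therefore has no p-value in any comparison with the acriflavine arrays, and its values there are a description. Its p-values in other comparisons with the TGFb1 arrays reuse arrays that entered that difference, so they are not independent of the choice.

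RNA of 14 samples was read on Affymetrix 3-prime expression arrays. All cells, grown in 10% serum, spent 24 h in 1% serum before a treatment of 48 h. Control cells had vehicle (4 arrays), and the other groups had the cytokine TGFb1 at 5 ng/ml, alone (4 arrays), together with acriflavine at 2.5 µM (3 arrays) or together with sodium valproate at 2 mM (3 arrays). The groups with acriflavine and valproate, called by these names from here on, therefore hold TGFb1 as well, and acriflavine without TGFb1 was not analysed here. Per the study's text the replicates are biological, and all come from 1 cell line. TGFb1 is known to drive epithelial cells toward a mesenchymal state, acriflavine is made of acridine dyes that insert into DNA and RNA, and valproate inhibits histone deacetylases. The study added both compounds as inhibitors of that transition.

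Annexins are proteins that bind negatively charged phospholipids, such as phosphatidylserine, when calcium rises, and so move from the cytosol to membranes. They share a core of repeats that holds the calcium sites and differ in the N-terminal region, which binds partners such as proteins of the S100 family. In epithelial and carcinoma cells they are known for roles in membrane repair, endocytosis and secretion, and in plasminogen activation at the cell surface.

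The promoters of 3 members are shown because these genes had different patterns: ANXA3 and ANXA1 fell with TGFb1 while ANXA5 rose. The sequences are from RefSeq on GRCh38.p14, each running 5′ to 3′ on the gene's strand from 250 bases before to 50 bases after an annotated start, and all 9 members matched, with 13 windows of 300 bases. Capitals mark every match, on either strand, to 1 of 5 motifs: the E-box CACCTG bound by SNAI1, the SMAD motif CAGAC, the hypoxia motif ACGTG, the GC box GGGCGG and TATAAA.
ANXA3: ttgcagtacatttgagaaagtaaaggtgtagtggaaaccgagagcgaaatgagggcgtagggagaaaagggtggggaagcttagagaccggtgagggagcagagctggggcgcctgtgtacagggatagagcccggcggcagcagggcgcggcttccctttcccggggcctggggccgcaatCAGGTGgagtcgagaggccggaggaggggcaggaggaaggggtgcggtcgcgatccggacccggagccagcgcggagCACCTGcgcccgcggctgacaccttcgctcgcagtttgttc
ANXA1: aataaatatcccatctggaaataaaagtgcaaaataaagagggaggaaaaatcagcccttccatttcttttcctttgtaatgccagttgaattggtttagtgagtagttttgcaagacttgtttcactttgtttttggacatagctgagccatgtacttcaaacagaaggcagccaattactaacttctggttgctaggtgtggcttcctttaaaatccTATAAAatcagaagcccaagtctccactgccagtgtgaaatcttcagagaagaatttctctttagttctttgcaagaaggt
ANXA5: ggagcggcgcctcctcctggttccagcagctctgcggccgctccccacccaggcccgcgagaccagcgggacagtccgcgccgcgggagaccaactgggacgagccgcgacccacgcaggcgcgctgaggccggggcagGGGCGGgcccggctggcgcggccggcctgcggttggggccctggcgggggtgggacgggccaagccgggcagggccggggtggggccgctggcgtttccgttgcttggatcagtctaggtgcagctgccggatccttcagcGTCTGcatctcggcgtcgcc
The ANXA3 window (chr4:78551520-78551819, plus strand) held CACCTG at 2 places, as CAGGTG at -68, counted in bases from the start, and as CACCTG at position 10 after it. Of 35114 windows of the same length in the table, 20.6% held CACCTG and 3.49% held it at least at 2 places. CACCTG was also at 2 places in the window of ANXA7, which did not pass with TGFb1 (0.04). It was at 1 place in a window of each of ANXA4, ANXA6 and ANXA11. The windows of ANXA1, ANXA2, ANXA5 and ANXA10 held it at 0 places. The ANXA1 window (chr9:73151615-73151914, plus strand) held TATAAA at -31, as did 11.5% of all windows somewhere in their length, and had 0 CpG and a GC content of 37.7%. The ANXA5 window (chr4:121696931-121697230, minus strand) held GGGCGG at -111 and CAGAC, as GTCTG, at position 31 after the start. GGGCGG was in 45% of all windows and CAGAC in 45.3%, while ACGTG, in 21.4%, was in none of these 3 windows. ANXA5 had 36 CpG and a GC content of 76.3%, ANXA3 25 CpG and 64.7%, and the median window 14 CpG and 58.7%. The matches describe letters in these windows, and no binding was measured.

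Values are log2 intensities, 1 unit of which is a 2-fold change, and levels of different genes are not compared as amounts because each probe set has its own brightness. A gene rose or fell where limma's adjusted p passed 0.05 among the 10877 genes whose mean over all arrays reached 6.89. Errors of differences are standard errors (SE) of that fit, and brackets hold 95% confidence intervals. The array medians lay between 7.16 and 7.21. The deviations of an array from the mean of its group had a standard deviation (SD) over genes of 0.375 for TGFb1 replicate 4, 0.256 for TGFb1 replicate 2, 0.250 for control replicate 4 and 0.0665 to 0.160 for the other 11, and where leaving out both replicates 4 changed a call, the values are given with the gene. The TGFb1 treatment showed in SNAI1 (2.63 ± 0.146) and PMEPA1 (1.89 ± 0.0703), which rose, and in CDH1 (-2.40 ± 0.259), which fell. All 6 epithelial markers were bright in control cells, at 8.98 to 14.1. Of 5 leukocyte markers on the array PTPRC, which defines leukocytes, was at 3.83, and only CD68, at 8.92, lay above the brightness limit. All 5 endothelial markers were at 5.01 to 6.72. Of 6 fibroblast markers LUM, DCN and PDGFRB lay below the limit, while COL1A1 (8.48), THY1 (7.48) and ACTA2 (mean 6.84 in control) were tested, and COL1A1 and THY1 rose with TGFb1 by 3.68 ± 0.254 and 0.95 ± 0.177. With acriflavine against TGFb1, COL1A1 fell by 3.88 ± 0.275 and CD68 fell by 0.76 ± 0.136. ACTA2 was 1.27 ± 0.104 higher in that comparison, at 8.06 with acriflavine, 6.79 with TGFb1 and 7.02 with valproate. Its acriflavine arrays lift its mean over all arrays above the limit, so this difference is a description. With valproate THY1 rose by 1.40 ± 0.191 and CD68 by 0.45 ± 0.136. The part of these shifts in the annexin values was not tested. In RNA of whole cultures, fewer cells of a type and less RNA per cell cannot be told apart.

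**Figure D1:**
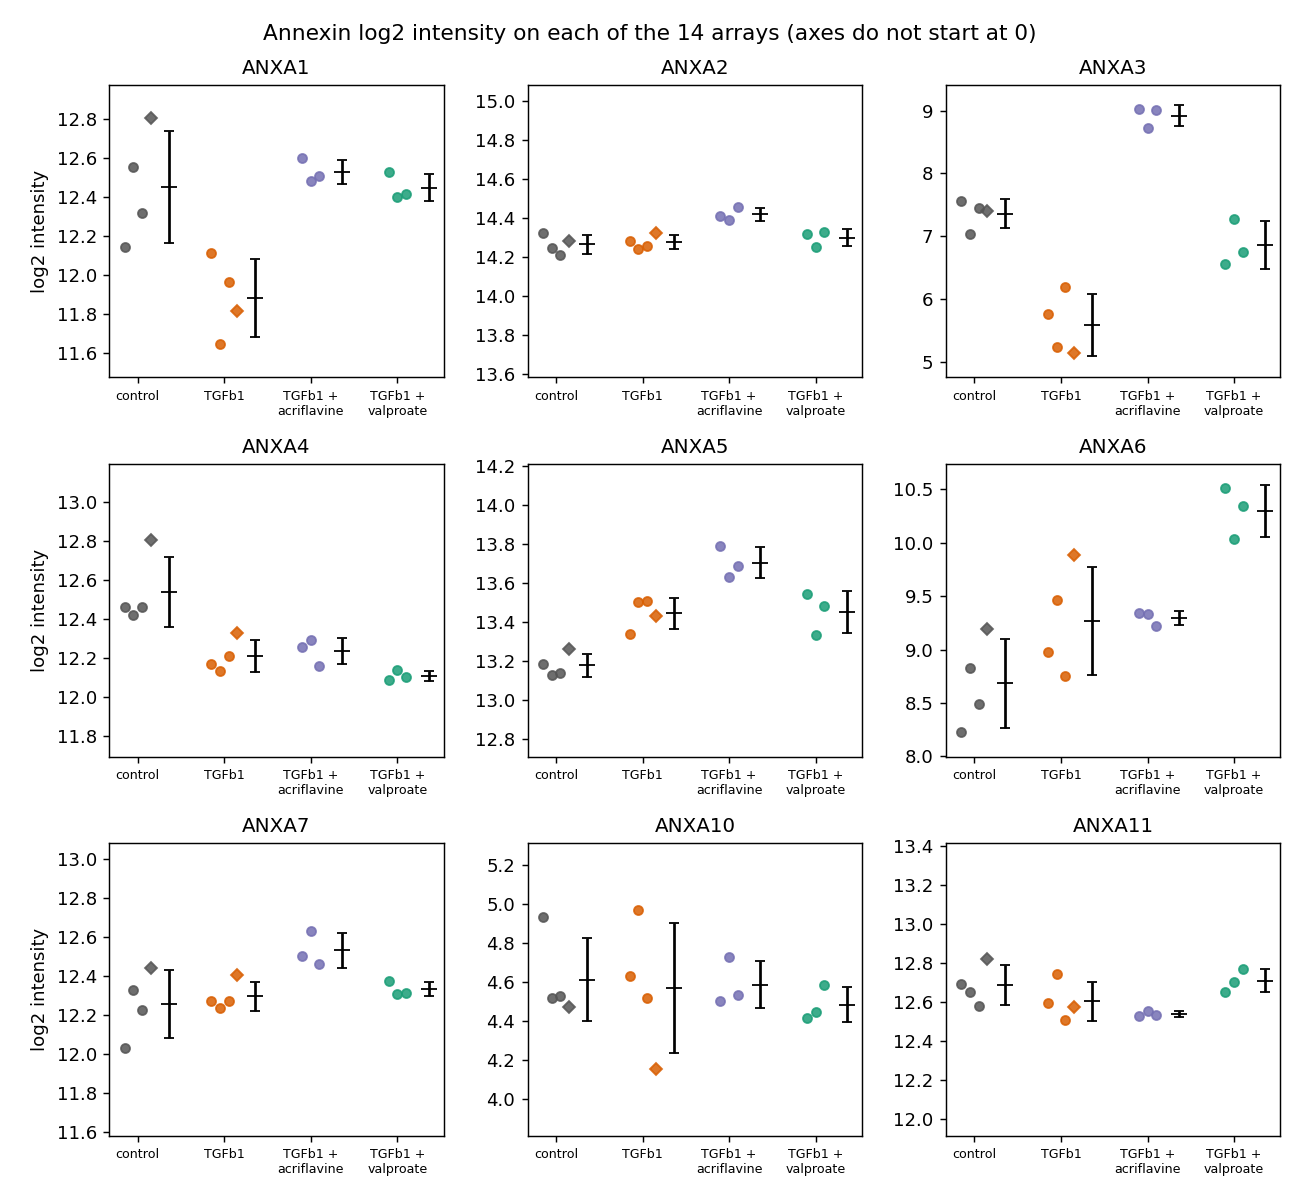
Log2 intensity of the kept probe set of each of the 9 annexins (vertical axes, each with its own range) on the 14 arrays, grouped as control, TGFb1, acriflavine with TGFb1 and valproate with TGFb1; each point is 1 array (diamonds: replicates 4) and the black mark is the group mean with its SD. ANXA3 runs from a mean of 5.58 with TGFb1 to 8.92 with acriflavine, with overlapping control and valproate arrays between, and on the valproate arrays ANXA6 has its highest mean, 10.3.

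TGFb1 alone was set against control to show the response to the cytokine. ANXA3, ANXA1 and ANXA4 fell and ANXA5 rose, and ANXA2, ANXA6, ANXA7 and ANXA11 did not pass. Thus 1 of 8 tested members rose and 3 fell, while 8.39% of all tested genes rose and 9.97% fell. The median difference was -0.04 over the 8 members and 0.00 over all genes. ANXA3 counts as tested, here and with valproate, only because its acriflavine arrays lift its mean above the limit. Without it, ANXA1 and ANXA4 fell and ANXA5 rose with TGFb1, and ANXA1 and ANXA6 rose with valproate against TGFb1. Nothing about the family is read from counts that include ANXA3.

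Acriflavine and valproate were each set against TGFb1 alone, and both comparisons share the TGFb1 arrays with each other and with the comparison above. With acriflavine, ANXA1 and ANXA5 rose, so that 2 of the 7 members tested there rose and 0 fell, while 24.5% of all genes rose and 19.1% fell. The share of members that rose was close to that of all genes. The member median was 0.14 and that of all genes 0.03. With valproate, ANXA1, ANXA3 and ANXA6 rose, so that 3 of 8 rose and 0 fell, beside 15.1% and 16.2% of all genes. The member median was 0.07 and that of all genes -0.01.

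Against control, the acriflavine arrays showed 2 of 7 members that rose (ANXA5 and ANXA7) and 1 that fell (ANXA4), beside 26.1% of all genes that rose and 21.6% that fell. The valproate arrays showed 2 of 8 that rose (ANXA5 and ANXA6) and 1 that fell (ANXA4), beside 16.9% and 19.8%. Between the compounds, ANXA5 was higher and ANXA6 lower with acriflavine than with valproate, 1 of 7 in each direction, beside 28.3% of all genes higher and 23.3% lower. All 3 of these comparisons reuse arrays of those before.

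**Figure D2:**
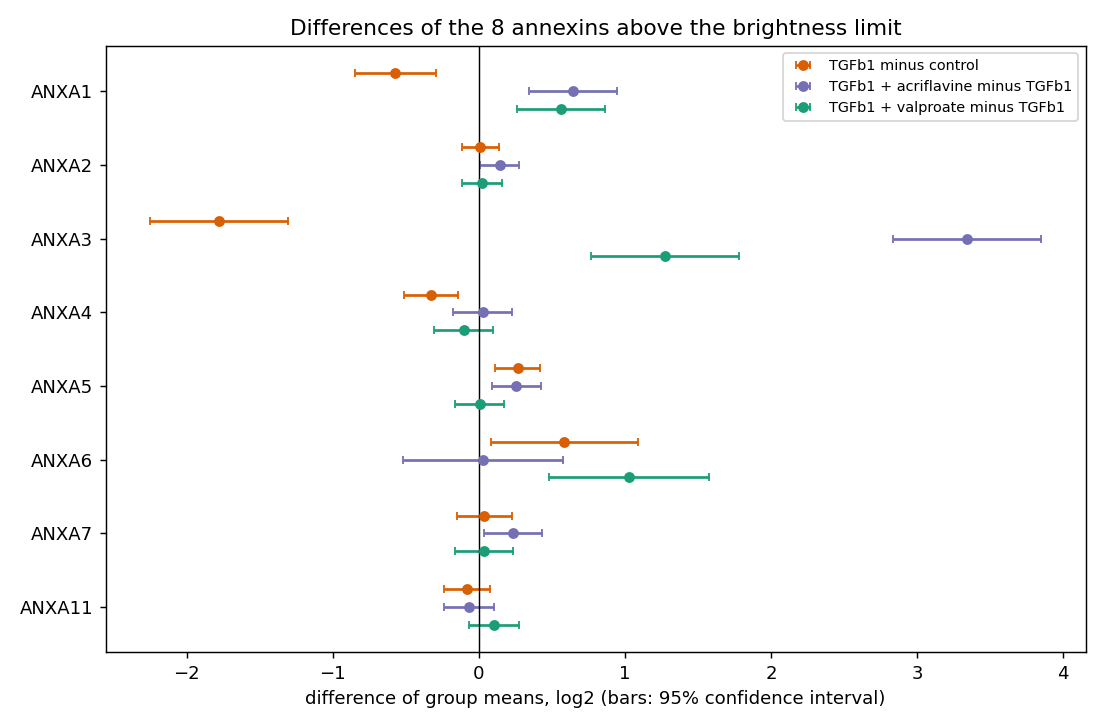
Differences of group means (horizontal axis, log2) of the 8 annexins above the brightness limit, in 3 comparisons: TGFb1 minus control, acriflavine minus TGFb1 and valproate minus TGFb1; points are differences and bars 95% confidence intervals. ANXA3 lies farthest from 0 in each, at -1.78, 3.34 and 1.28, the second of which is a description, and the intervals of ANXA11 cross 0 in all 3.

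ANXA3, an annexin abundant in neutrophils, where it moves to granule membranes, and found in several carcinomas, had the widest range of the 9 genes. Its control arrays read 7.56, 7.04, 7.44 and 7.40 and its TGFb1 arrays 5.76, 5.24, 6.19 and 5.14. The acriflavine arrays read 9.02, 8.73 and 9.02 and the valproate arrays 6.55, 7.28 and 6.74. Every TGFb1 array was below every other array, every acriflavine array was above every other, and the valproate arrays overlapped the controls.

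ANXA3 fell with TGFb1 by 1.78 ± 0.219 [-2.25, -1.31], a ratio of intensities of 3.43-fold (adjusted p = 6.69e-05). It rose with valproate against TGFb1 by 1.28 ± 0.236 [0.77, 1.78], or 2.42-fold (adjusted p = 0.00103). Both p-values use the TGFb1 arrays, which entered the difference known when the genes were chosen, so neither is independent of that choice. Against control, the valproate mean of 6.86 ± 0.378 (SD, n = 3) differed from 7.36 ± 0.226 (SD, n = 4) by -0.50 [-1.01, 0.01], which did not pass (adjusted p = 0.114; -0.71 and 0.0459 without valproate replicate 2). With acriflavine the mean of 8.92 ± 0.169 (SD, n = 3) was 3.34 ± 0.236 above TGFb1, 1.56 ± 0.236 above control and 2.06 ± 0.252 above valproate. As ratios of intensities these are 10.1-fold, 2.95-fold and 4.18-fold, given as a description. The TGFb1 mean of 5.58 and the valproate mean of 6.86 lie below the brightness limit of 6.89, and whether the probe set was above background there was not tested, so these ratios, and those of the TGFb1 and valproate comparisons, describe the intensities alone.

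The mean of ANXA3 over all arrays was 7.08, just above the brightness limit, and without the acriflavine arrays it was 6.58, below it. With no limit at all, the fall with TGFb1 (adjusted p = 6.34e-05) and the rise with valproate (adjusted p = 0.00101) passed as well. These p-values rest on the same TGFb1 arrays. A second ANXA3 probe set moved alike, by -1.73 with TGFb1, by 1.31 with valproate and by 3.43 with acriflavine. Its TGFb1 arrays at 5.45, 4.70, 5.90 and 4.98 lay below its control arrays at 6.96, 6.80, 7.15 and 7.02, and its acriflavine arrays at 8.65, 8.81 and 8.60 lay above both. Within replicates 1 to 3 ANXA3 differed by -1.62 between TGFb1 and control, and within the pair of replicates 4 by -2.27. Of the 6 epithelial markers, 5 fell with TGFb1 (median -0.73), where 9.97% of all genes fell, and 5 rose with acriflavine (median 0.74), where 24.5% of all genes rose. With valproate 2 of 6 rose, KRT7 and EPCAM (median 0.35; 15.1% of all genes), while KRT8, KRT18 and KRT19 were at -0.11, -0.07 and 0.07. The part of these shifts in the ANXA3 values was not tested.

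ANXA1, a target of glucocorticoids that signals through formyl peptide receptors, read 12.14, 12.55, 12.32 and 12.80 in control and 12.11, 11.65, 11.96 and 11.81 with TGFb1. It read 12.60, 12.48 and 12.51 with acriflavine and 12.53, 12.40 and 12.42 with valproate. The TGFb1 arrays were the lowest 4 of the 14, and the other groups overlapped.

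ANXA1 fell with TGFb1 by 0.57 ± 0.130 (adjusted p = 0.00757). It rose against TGFb1 with acriflavine by 0.65 ± 0.141 (adjusted p = 0.00209) and with valproate by 0.56 ± 0.141 (adjusted p = 0.00736). Against control the differences were 0.08 [-0.23, 0.38] with acriflavine and -0.01 [-0.31, 0.30] with valproate, and neither passed. All 4 ANXA1 probe sets above the limit gave these same calls, with falls of -0.62 to -0.54 with TGFb1 and rises of 0.65 to 0.75 and of 0.56 to 0.65 with the compounds. The fall did not pass when the mean of all probe sets, a dim one included, was used (adjusted p = 0.0543) or when only the arrays of both groups were fitted (adjusted p = 0.0556). The rise with valproate did not pass with that mean either (0.42, adjusted p = 0.110).

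ANXA2, which with S100A10 forms a tetramer that binds plasminogen and its activator at the cell surface, stayed within a narrow range. Its control arrays read 14.33, 14.25, 14.21 and 14.28, its TGFb1 arrays 14.28, 14.24, 14.26 and 14.32, and its valproate arrays 14.32, 14.25 and 14.33. The acriflavine arrays, at 14.41, 14.39 and 14.46, were the highest 3 of all.

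ANXA2 differed by 0.01 [-0.12, 0.14] between TGFb1 and control and by 0.02 [-0.11, 0.16] between valproate and TGFb1. With acriflavine it was at 0.14 [0.01, 0.28] against TGFb1, which did not pass (adjusted p = 0.0864; 0.16 and 0.0388 without both replicates 4; 0.00635 with a variance trend and robust prior). Against control it was at 0.15 [0.02, 0.29], which did not pass either (adjusted p = 0.0614). That difference passed without both replicates 4 (0.16, adjusted p = 0.0373), without TGFb1 replicate 2 (adjusted p = 0.0467) or 4 (adjusted p = 0.0436), with each array centred on the common median (0.18, adjusted p = 0.0309) and with the variance trend (adjusted p = 0.00357). Of its 6 probe sets, 1 rose with acriflavine and the range was 0.02 to 0.20. ANXA2 has processed pseudogenes nearly identical in sequence, and the probe set named for ANXA2P2 was at 0.13 against TGFb1 and did not pass. In a fit of all probe sets, the one named for ANXA2P3 rose with acriflavine. It rose by 0.29 against TGFb1 (adjusted p = 0.00909) and by 0.27 against control (adjusted p = 0.0133). The one named for ANXA2P1 was dim, at 6.41 with TGFb1 and 6.71 with acriflavine. The signal of the gene and that of its copies may not be separable.

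ANXA4, found near the membranes of secretory epithelia, read 12.46, 12.42, 12.47 and 12.81 in control and 12.17, 12.13, 12.21 and 12.33 with TGFb1. It read 12.26, 12.29 and 12.16 with acriflavine and 12.09, 12.14 and 12.10 with valproate. All 4 control arrays lay above all 10 arrays with TGFb1.

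ANXA4 fell with TGFb1 by 0.33 ± 0.0865 (adjusted p = 0.0176), and by 0.24 without control replicate 4, its highest array (adjusted p = 0.0305). Neither compound moved it away from TGFb1 past the test: the differences were 0.03 [-0.17, 0.23] for acriflavine and -0.10 [-0.30, 0.10] for valproate. It was lower than in control with acriflavine (-0.30 ± 0.0934, adjusted p = 0.0162) and with valproate (-0.43 ± 0.0934, adjusted p = 0.00254). Of 9 ANXA4 probe sets 7 were above the limit, and all 7 fell with TGFb1, by 0.28 to 0.64. With acriflavine against TGFb1, 2 of the 7 rose, within a range of -0.05 to 0.31, so the probe sets differed there. The fall with TGFb1 did not pass in a fit of both groups alone (adjusted p = 0.0980), nor did the lower level with acriflavine than in control without acriflavine replicate 3 (adjusted p = 0.0688) or with probe sets ending in _x_at, such as the kept one, left out (-0.22, adjusted p = 0.0681).

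ANXA5, the phosphatidylserine binder used as a stain for dying cells, read 13.18, 13.13, 13.14 and 13.26 in control and 13.34, 13.50, 13.51 and 13.43 with TGFb1. It read 13.79, 13.63 and 13.69 with acriflavine and 13.54, 13.34 and 13.48 with valproate. The control arrays were the lowest 4 and the acriflavine arrays the highest 3, while the TGFb1 and valproate arrays overlapped.

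ANXA5 rose with TGFb1 by 0.27 ± 0.0722 (adjusted p = 0.0203), and it rose with acriflavine beyond the TGFb1 level by 0.26 ± 0.0780 (adjusted p = 0.0156). Acriflavine stood 0.53 ± 0.0780 above control (adjusted p = 0.000107) and 0.25 ± 0.0834 above valproate (adjusted p = 0.0220). Valproate differed from TGFb1 by 0.01 [-0.16, 0.18] and stood 0.28 ± 0.0780 above control (adjusted p = 0.0132). Of 6 ANXA5 probe sets, 5 rose with TGFb1, by up to 0.43, and all 6 rose with acriflavine, by 0.26 to 0.66, and the kept one lay at the low end of that range. The rise with TGFb1 was of like size without control replicate 2 (0.25, adjusted p = 0.0577) or control replicate 3 (0.25, adjusted p = 0.0626), though it did not pass there. In fits of both groups alone it did not pass without the replicate number as a block (adjusted p = 0.0826) or with it (adjusted p = 0.0603). The rise with acriflavine over TGFb1 did not pass without TGFb1 replicate 1 (adjusted p = 0.0507) or acriflavine replicate 1 (adjusted p = 0.0842). Nor did it pass in a fit of both groups alone without the block (adjusted p = 0.0595). The difference between the compounds was lost without acriflavine replicate 1 (adjusted p = 0.0970) or valproate replicate 2 (adjusted p = 0.106). It was also lost with quantile normalisation again (0.20, adjusted p = 0.0655). That of valproate from control was lost without valproate replicate 1 (adjusted p = 0.0722) or 3 (adjusted p = 0.0529).

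ANXA6, whose core is duplicated and which is known to act at endosomes and in cholesterol transport, read 8.22, 8.83, 8.49 and 9.19 in control and 8.97, 9.46, 8.75 and 9.89 with TGFb1. It read 9.34, 9.33 and 9.22 with acriflavine and 10.51, 10.04 and 10.35 with valproate. The valproate arrays were the highest 3 of the 14, and the control and TGFb1 arrays overlapped.

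ANXA6 rose with valproate against TGFb1 by 1.03 ± 0.254 [0.48, 1.57], or 2.04-fold (adjusted p = 0.00693), and against control by 1.61 ± 0.254, or 3.06-fold (adjusted p = 0.000229). Acriflavine lay 1.00 ± 0.271 below valproate (adjusted p = 0.00708) and differed from TGFb1 by 0.03 [-0.52, 0.58]. TGFb1 was 0.59 ± 0.235 [0.08, 1.09] above control, which did not pass (adjusted p = 0.103). In each replicate number the TGFb1 array was above the control array, and in a fit of both groups alone that difference passed with the replicate number as a block (adjusted p = 0.00566) and failed to pass when the block was dropped (adjusted p = 0.235). Over all groups, a call was reached without control replicate 4 (0.75, adjusted p = 0.0406), without TGFb1 replicate 3 (0.76, adjusted p = 0.0382) and without both replicates 4 (0.55, adjusted p = 0.0358). Acriflavine was 0.62 [0.07, 1.16] above control (adjusted p = 0.0602), and without control replicate 4 it was 0.78 above and passed (adjusted p = 0.0194), as it did without both replicates 4 (0.78, adjusted p = 0.00202) and in a fit of both groups alone (adjusted p = 0.0239). It also passed without TGFb1 replicate 3 (adjusted p = 0.0432) or 4 (adjusted p = 0.0200), which enter only the estimate of the spread. ANXA6 had 1 probe set, so no second one checks these values.

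ANXA7, a long-tailed annexin tied to membrane fusion that binds sorcin (SRI), read 12.03, 12.33, 12.23 and 12.44 in control and 12.27, 12.24, 12.27 and 12.41 with TGFb1. It read 12.50, 12.63 and 12.46 with acriflavine and 12.38, 12.31 and 12.32 with valproate. The acriflavine arrays were the highest 3, and the other 11 overlapped.

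ANXA7 rose with acriflavine against control by 0.27 ± 0.0932 (adjusted p = 0.0259). That call was lost without control replicate 1 (0.20, adjusted p = 0.0728), control replicate 3 (adjusted p = 0.0583), acriflavine replicate 1 (adjusted p = 0.0553) or acriflavine replicate 2 (adjusted p = 0.115). Against TGFb1 the difference of 0.24 [0.03, 0.44] did not pass (adjusted p = 0.0557), but passed without both replicates 4 (0.27, adjusted p = 0.00969), without TGFb1 replicate 4 (0.27, adjusted p = 0.0266), control replicate 1 (adjusted p = 0.0294) or control replicate 4 (adjusted p = 0.0345). Against valproate, the acriflavine difference of 0.20 missed the threshold (adjusted p = 0.113; 0.0417 without both replicates 4). TGFb1 and control differed by 0.04 [-0.15, 0.23]. The second ANXA7 probe set was at 0.15 in acriflavine against control and did not pass.

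ANXA11, the other long-tailed annexin, which binds PDCD6 and links RNA granules to lysosomes, read 12.69, 12.65, 12.58 and 12.82 in control and 12.59, 12.74, 12.50 and 12.57 with TGFb1. It read 12.53, 12.55 and 12.53 with acriflavine and 12.65, 12.70 and 12.77 with valproate. The acriflavine arrays lay below all control and valproate arrays and overlapped those of TGFb1.

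ANXA11 passed in 0 of the 6 comparisons. Its differences were -0.08 [-0.24, 0.07] for TGFb1 against control, -0.07 [-0.24, 0.10] for acriflavine and 0.10 [-0.06, 0.27] for valproate against TGFb1. Against control they were -0.15 [-0.32, 0.02] for acriflavine and 0.02 [-0.15, 0.19] for valproate. Acriflavine against valproate was at -0.17 [-0.35, 0.01] (adjusted p = 0.107), and passed in a fit of both groups alone (adjusted p = 0.0424). Of its 8 probe sets, 1 fell with acriflavine, by 0.37 against TGFb1 (adjusted p = 0.00807) and by 0.42 against control (adjusted p = 0.00319), and the other 7 did not.

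ANXA10, best known from stomach and other gastric-type epithelia, lay below the brightness limit with a mean of 4.57 and has no test. It read 4.93, 4.52, 4.53 and 4.47 in control, 4.63, 4.97, 4.52 and 4.15 with TGFb1, 4.50, 4.73 and 4.53 with acriflavine and 4.42, 4.45 and 4.58 with valproate. All 4 groups overlapped. Of the annexins outside the 9, ANXA8, ANXA9 and ANXA13 also lay below the limit, with means of 6.63, 5.77 and 4.94.

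**Figure D3:**
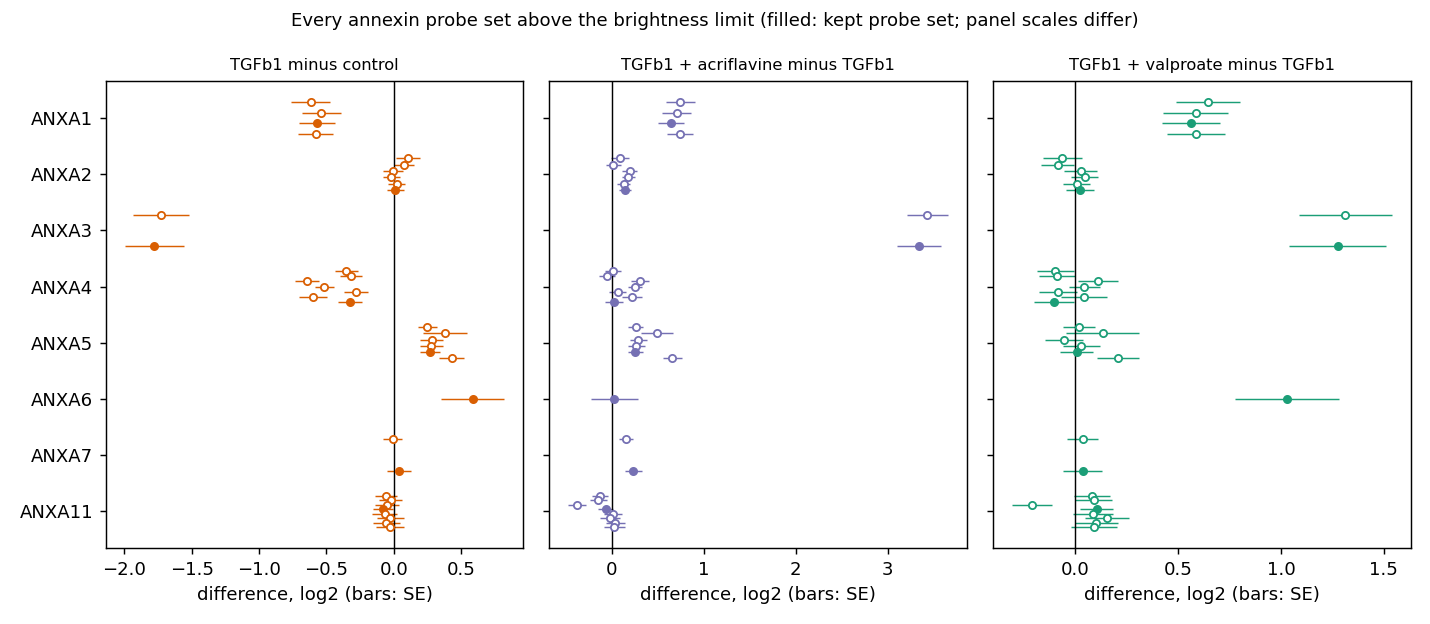
Differences (horizontal axis, log2, panels with separate scales) of every annexin probe set above the brightness limit for TGFb1 minus control, acriflavine minus TGFb1 and valproate minus TGFb1; filled points are the kept probe sets, open points the others, and bars are SE. All 7 ANXA4 and all 4 ANXA1 probe sets lie below 0 with TGFb1, and 1 ANXA11 probe set stands apart at -0.37 with acriflavine.

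Set side by side, the groups did not fall into the same order for every gene, though some genes shared an order. The means of ANXA3 and ANXA1 had the same order. Those of ANXA2, ANXA5 and ANXA7 ran from control over TGFb1 and valproate to acriflavine, and not all of these steps passed. ANXA3 ran from TGFb1 over valproate and control to acriflavine, and of the tested neighbours valproate and control did not differ past the test. ANXA1 was lowest with TGFb1, and the means of the other 3 groups, 12.45 to 12.53, did not differ past the test. ANXA4 was highest in control, with the other 3 groups not differing past the test. ANXA5 ran from control over TGFb1 and valproate, which did not differ past the test, to acriflavine. ANXA6 ran from control over TGFb1 and acriflavine, where neither step passed, to valproate.

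For the proteins that annexins bind, RNA was read from a list of 20 genes, 11 of them tested. With TGFb1 1 rose and 2 fell (median -0.08), with acriflavine 0 rose and 0 fell (0.03), and with valproate 2 rose and 0 fell (0.05), beside medians of all genes of 0.00, 0.03 and -0.01. Of all genes 8.39% rose and 9.97% fell with TGFb1, 24.5% and 19.1% with acriflavine and 15.1% and 16.2% with valproate. S100A10, the partner of ANXA2, did not pass, at -0.05, 0.03 and -0.13 in these comparisons (adjusted p = 0.708, 0.778 and 0.279). S100A11, the partner of ANXA1, rose with TGFb1 by 0.32 ± 0.0930 (adjusted p = 0.0293), where ANXA1 itself fell, and was at 0.03 and -0.02 with the compounds. AHNAK, a large scaffold bound by ANXA2 with S100A10, fell with TGFb1 by 0.55 ± 0.0920, as did EGFR, the growth factor receptor, by 0.62 ± 0.194. PLAT, tissue plasminogen activator, which binds ANXA2, rose with valproate by 1.19 ± 0.230 (adjusted p = 0.0014), and GRN, progranulin, rose by 0.46 ± 0.134. The formyl peptide receptor genes FPR1, FPR2 and FPR3 were not tested.

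For plasma membrane repair, in which annexins seal wounds with calcium, the RNA of 24 genes was read, 20 of them tested. Repair itself was not measured. With TGFb1 1 rose and 5 fell (median -0.16), with acriflavine 6 rose and 0 fell (0.13), and with valproate 4 rose and 2 fell (0.10). Over all genes the medians were 0.00, 0.03 and -0.01. Of all genes 8.39% rose and 9.97% fell with TGFb1, 24.5% and 19.1% with acriflavine and 15.1% and 16.2% with valproate. The shares of repair genes that rose with the compounds were near those of all genes. The 5 of 20 that fell with TGFb1 stand beside 9.97%, and this difference was not tested. MYOF, a ferlin of membrane fusion, fell with TGFb1 by 0.62 ± 0.0877, and CAV1 and CAVIN1, which build caveolae, fell by 0.53 ± 0.0831 and 0.42 ± 0.111. With acriflavine CAVIN1 rose by 1.15 ± 0.119, EHD1, an endosomal ATPase, by 0.79 ± 0.0970 and SMPD1, acid sphingomyelinase, by 0.72 ± 0.0738. With valproate CAV1 and MYOF were lower still, by -0.79 ± 0.0897 and -0.58 ± 0.0947, and SMPD1 rose by 0.43 ± 0.0738.

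Flippases, scramblases and synthesis enzymes bear on the membrane side of phosphatidylserine, the lipid that annexins bind. The RNA of 14 such genes was read, 9 of them tested, and the side of the lipid was not measured. With TGFb1 0 rose and 3 fell (median -0.29), with acriflavine 4 rose and 1 fell (0.36), and with valproate 2 rose and 0 fell (0.01). The medians of all genes were 0.00, 0.03 and -0.01. Of all genes 8.39% rose and 9.97% fell with TGFb1, 24.5% and 19.1% with acriflavine, and 15.1% and 16.2% with valproate. ATP8B1, a flippase, fell with TGFb1 by 1.24 ± 0.221 and rose with acriflavine by 1.32 ± 0.239 and with valproate by 0.72 ± 0.239. PISD, which makes phosphatidylethanolamine from phosphatidylserine, and ATP11A, a flippase, fell with TGFb1 by 0.85 ± 0.106 and 0.47 ± 0.155. With acriflavine PLSCR1, of the scramblase family and induced by interferon, rose by 1.23 ± 0.215 and ANO6, a calcium-activated scramblase, fell by 0.55 ± 0.111. TMEM30A, the partner subunit of flippases, rose with valproate by 0.59 ± 0.182.

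The genes most like ANXA3 were found by the root mean square difference over the 14 arrays between values centred on each gene's own mean, a description with no test. The 5 nearest of 10876 genes were APOBEC3G (0.504), PPL (0.543), EPCAM (0.549), SMIM10 (0.556) and TMEM156 (0.573), against a median of 1.23. The group means of PPL, a protein of epithelial junction plaques, were 10.88 in control, 8.85 with TGFb1, 11.62 with acriflavine and 9.55 with valproate. EPCAM, an epithelial adhesion protein, was at 10.48, 9.10, 11.07 and 9.77. Of the other tested annexins ANXA1 was nearest, at 1.01 and rank 683. The others were at 1.16 or more, with ANXA6 at 1.49, at rank 10094. Values were centred but not scaled, so genes with small changes lie at similar distances from ANXA3 whatever their pattern. The measure includes the acriflavine and TGFb1 arrays that entered the choice of genes.

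**Figure D4:**
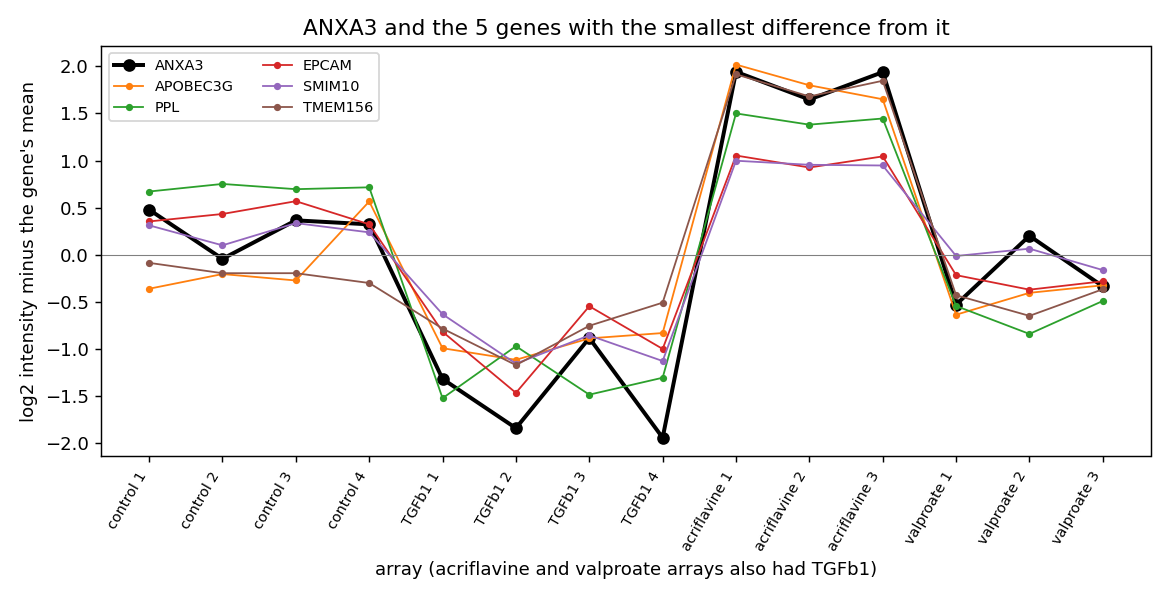
Log2 intensity minus the gene's own mean (vertical axis) on each of the 14 arrays (horizontal axis) for ANXA3, in black, and the 5 genes nearest to it. All 6 lines have their lowest point on a TGFb1 array and are highest on the 3 acriflavine arrays; ANXA3 reaches 1.94 there and -1.94 on TGFb1 replicate 4.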

How the data were processed

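The authors deposited log2 intensities made by RMA, with affy 1.44.0, per the submitters' processing notes. Which arrays were normalised together, and the genome build, are not given in the sources used here. RMA's quantile step gives the arrays like distributions, so values are relative to the bulk of genes. Values ran from 2.97 to 15.1 with 0 missing. Of 49193 probe sets, 44898 had 1 gene symbol in the platform annotation, 1825 several and 2470 none. Each gene was read by its probe set of highest mean over the 14 arrays. The dimmest 40% of 18129 genes were left out, and 10877 were tested.

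A mean per group was fitted to the 14 arrays by lmFit and eBayes of limma 3.58.1 under R 4.3.3, and p-values of 6 comparisons were adjusted over all genes by Benjamini-Hochberg at 0.05. The code of the fit was run on simulated data, with independent noise of equal spread on all arrays of a gene. That run cannot show how the fit handles the unequal and correlated arrays of these data. Precision is limited by the number of arrays. The text names all 9 annexins, from each partner list the 3 largest differences that passed, S100A10 and S100A11, and the 5 genes nearest to ANXA3. Members, lists and rules were chosen with earlier results of these data known. Lists also covered 6 genes of the TGFb1 response (5 tested, of which 4 rose and 1 fell with TGFb1) and markers of 5 cell types. The 2 tested hepatocyte markers, APOA1 and TTR, passed in 0 of 6 comparisons.

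The rule for pairs was that deviations from the group means correlated above 0.1 at every shared replicate number. Control and TGFb1 met it, at 0.387, 0.359, 0.543 and 0.705, but replicates 1 to 3 alone gave -0.258, 0.151 and 0.589. The other comparisons did not meet it. The main fit used no pairs in any comparison, so its calls for TGFb1 against control leave the pairing out. With the replicate block, in a fit of both groups alone, ANXA5 did not pass there (adjusted p = 0.0603) and ANXA6 did (adjusted p = 0.00566). Alternatives were other brightness limits, other uses of probe sets, other scalings, a variance trend, the replicate block, models of only 2 groups, stricter thresholds and arrays left out. A limit over the 11 arrays without acriflavine was added after the data were seen. Plots were made by matplotlib 3.10.9 (Python 3.11.15).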

Additional observations from a re-analysis of the deposited data

Results flagged for a closer look

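In the groups of 4 arrays, 18 sets of values were checked for an array far from the other 3, and 2 were found; chance gives about 1 in 20. ANXA4 read 12.81 on control replicate 4, a gap of 0.892 of the group's range, where the other 3 controls lay between 12.42 and 12.47. ANXA10, which has no test, read 4.93 on control replicate 1, a gap of 0.879 of the range, with the other 3 between 4.47 and 4.53.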

How the results depend on the processing

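Over 28 settings, 14 of which left out 1 array, 0 of the annexin differences changed direction at a call, and of 45 with a test 23 kept their side of the threshold in every setting that gave a value (26 settings for ANXA3). Most of those 23 never passed. The only calls that held throughout were ANXA3 for TGFb1 against control and valproate against TGFb1, and ANXA6 for valproate against TGFb1 and against control. Every other call was lost at 2-fold, and many in further settings. The number of annexins that passed in the comparison of TGFb1 with control, 4, became 1 when only both groups were fitted. With the replicate block in that smaller fit it was 4, with ANXA6 and without ANXA5. It was 2 at an adjusted p of 0.01 and 1 at 2-fold. For acriflavine against TGFb1 the count of 2 became 4 with a variance trend and robust prior, 4 without both replicates 4, 1 when only both groups were fitted, 1 at an adjusted p of 0.01 and 0 at 2-fold. For acriflavine against control the count of 3 became 5 without both replicates 4, 1 at an adjusted p of 0.01 and 0 at 2-fold. For valproate against control the count of 3 became 1 at 2-fold. For acriflavine against valproate the count of 2 became 1 with quantile normalisation again, 4 when only both groups were fitted, 1 at an adjusted p of 0.01 and 0 at 2-fold. Leaving out 1 array gave 1 to 3 for acriflavine against TGFb1, 2 to 5 for acriflavine against control and 1 to 2 for acriflavine against valproate. The causes were not tested. The comparisons other than TGFb1 against control did not meet the rule for pairs. In their fits of 2 groups alone, which use replicates 1 to 3 under the block, ANXA7 for acriflavine against TGFb1 passed with the block (adjusted p = 0.0200) and not without it (adjusted p = 0.0811), and ANXA6 for acriflavine against control passed with it (adjusted p = 0.000206) and without it (adjusted p = 0.0239).

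Over all genes, the count of calls for TGFb1 against control, 1997, became 963 with both groups alone, 3155 without both replicates 4, 1051 at an adjusted p of 0.01 and 280 at 2-fold. For valproate against TGFb1, 3402 became 2263, 5208, 2199 and 445 under the same settings. At 2-fold, the counts of the other comparisons in the order used above fell from 4738 to 753, 5193 to 792, 3991 to 638 and 5604 to 1288. In the same order they became 3708, 5981, 4690 and 7372 with both groups alone. Without both replicates 4 they became 6291, 6420, 5541 and 7006, and at an adjusted p of 0.01 3352, 3748, 2681 and 4212. With a variance trend and robust prior, acriflavine against TGFb1 had 4759. Acriflavine against valproate had 5560 with quantile normalisation again. ANXA3 had no value where probe sets ending in _x_at or genes dim on the 11 arrays without acriflavine were left out. Elsewhere its fall with TGFb1 ranged from -1.98 to -1.62. Dim probe sets such as those of ANXA10 limit what can be seen, and ANXA6 rests on 1 probe set.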
